A study of Drosophila melanogaster with 288 samples.

Results

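Among 288 single whole embryos of Drosophila melanogaster, 36 were labelled as 8-9 h after egg laying, and 27 of these were compared here by their level of Blimp-1 mRNA. All were of the W1118 strain, a white-eyed laboratory stock reared at room temperature, and they were profiled by BRB-seq, in which each embryo's RNA receives a barcode and the 3′ ends of transcripts are read from a pooled library. The 27 embryos were those with at least 300000 counts and 4500 detected genes that lay outside a small cluster of samples of mixed ages, which held the other 9 of 8-9 h. A fixed limit, which fell between embryos of 27.2 and 28.3 cpm (counts scaled to library size by TMM factors over embryos of all ages), divided them into a Blimp-1 high group of 16 and a Blimp-1 low group of 11. The rule thus used the measured level of Blimp-1 and nothing else, so its own values are a description and the gene was left out of every test. Samples had been grouped by RNA concentration and diluted before library preparation, and the 4 libraries held the groups unevenly, with 7 high and 2 low embryos from library E1_1, 2 and 6 from E1_2, 4 and 2 from E2, and 3 and 1 from E3. The embryos had between 1966457 and 18905261 counts on protein-coding genes, with a median of 7317990 in the high and 4709080 in the low group. Each embryo is a separate sample, and its age within the hour was not used here.

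Blimp-1 encodes a zinc finger repressor with a PR domain, the fly counterpart of mammalian PRDM1. It is induced by the steroid hormone ecdysone, and in the embryo it is known for its part in tracheal development and for timing the expression of the nuclear receptor gene ftz-f1, which it represses. The gene (FBgn0035625) lies on chromosome 3L from 5630983 to 5652094 on the plus strand of BDGP6. At this age the germ band is extended and begins to retract, neuroblasts divide, muscle founders form and the tracheal branches grow out.

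Blimp-1 was highest at 8-9 h among the 8 ages. Its level in the 27 embryos ran from 3.03 to 125 cpm with a median of 32.1, while the medians at the other 7 ages lay between 0.506 cpm at 14-15 h and 4.49 cpm at 2-3 h. The highest embryo of any other age had 27.47 cpm at 2-3 h, and the highest at 5-6 h and 11-12 h had 23.3 and 12.2 cpm. In the high group Blimp-1 ran from 28.3 to 125 cpm (median 52.5), and in the low group from 3.03 to 27.2 cpm (median 12.5). The limit cut through a continuous range: the embryo just inside it had 28.3 cpm and the embryo just outside 27.2 cpm, and 4 low embryos lay between 23.6 and 27.2 cpm. The embryos with the least Blimp-1 had 6 and 10 counts of the gene in all, so their levels are the least precise.

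**Figure D1:**
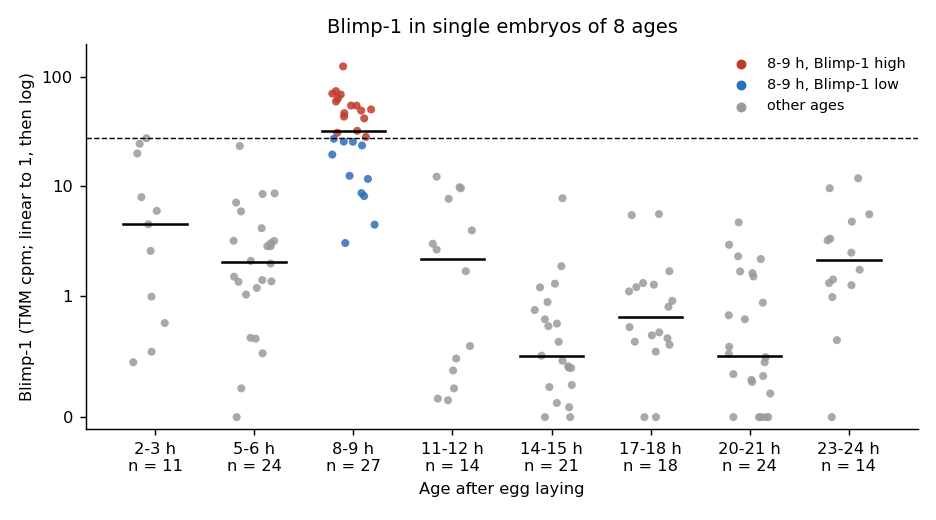
Blimp-1 level in each embryo outside the small cluster, by age (TMM cpm on an axis that is linear up to 1 and logarithmic above; bars are medians, the dashed line is the limit between the groups). The 8-9 h embryos, with a median of 32.1 cpm, spread from 3.03 to 125 cpm, and the limit divides them within a continuous range.

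Whether Blimp-1 orders these embryos by age was checked with a stage score that does not contain it. Embryos of 5-6 h and 11-12 h, none of which enters the comparison of the Blimp-1 groups, were compared with edgeR's quasi-likelihood test, and 2241 of 9348 genes (24%) were higher and 1849 (19.8%) lower at 11-12 h by more than 1 on the log2 scale. The score of an embryo is the mean log2(cpm + 1) of the first set minus that of the second. The score had a median of -3.27 at 5-6 h (from -3.67 to 0.41) and 0.71 at 11-12 h (from -0.28 to 1.48), so the 2 reference ages overlapped. These reference embryos also chose the genes of the score, so the distance between their medians is no independent check. Outside this span the score did not follow age, with medians of -3.15 at 2-3 h, 0.73 at 14-15 h and 0.20 at 20-21 h. The score ran from -2.24 to 0.58 in the 27 embryos of 8-9 h (median -1.23). The high group had scores from -1.81 to -0.0016 (median -1.12) and the low group from -2.24 to 0.58 (median -1.78). Below the lowest high embryo lay 4 low ones, and above the highest high embryo lay 1, embryo 14.

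Blimp-1 did not follow the score in one direction, and the groups are therefore called by their Blimp-1 level and not younger and older. Of the 8 embryos with the lowest scores 7 were low, of the 8 with the highest scores 4 were low, and all 11 embryos between them were high. These bands of the score were set after the values were seen. The low embryos of the first 8 had 3.03 to 25.6 cpm of Blimp-1. Those of the last 8 had 12.5 cpm (embryo 14), 23.6, 25.5 and 27.2 cpm, so all but embryo 14 lay near the limit. Their place in the low group thus depends on where the limit was set. With genes of a larger difference, with scores centred on library or with 14-15 h as the later reference, 2, 3 and 1 low embryos fell among the 11 in the middle. The median score of the groups differed by 0.66 score units (high minus low), and by 0.21 with the 14-15 h reference. Taken library by library the difference was -0.25 for E1_1, 0.48 for E1_2, 0.78 for E2 and 0.20 for E3, so its sign was not the same in all. By rank correlation of the whole profile 25 of the 27 embryos were most alike to the mean of 8-9 h. The exceptions were 2 low embryos of library E1_2, of which embryo 15 was most alike to 2-3 h and embryo 14 to 11-12 h.

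**Figure D2:**
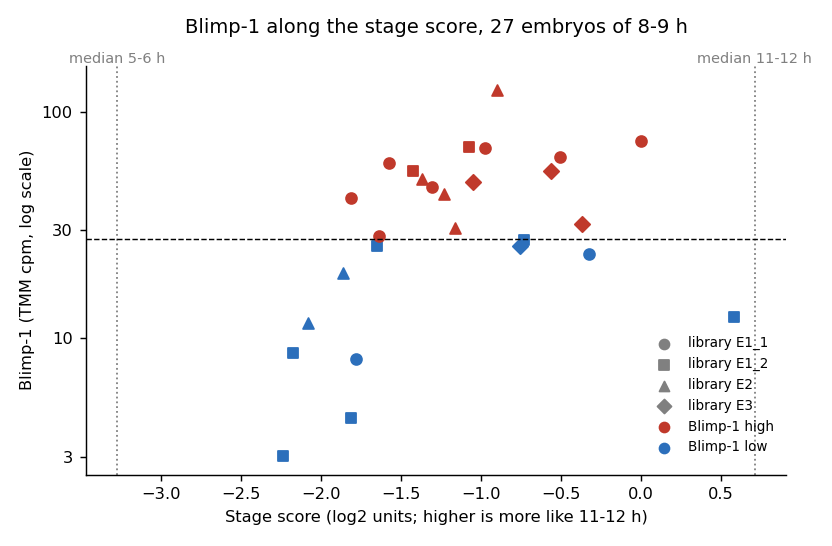
Blimp-1 level (TMM cpm, logarithmic axis) against the stage score of the 27 embryos of 8-9 h, with symbols for the 4 libraries. Low embryos lie at both ends of the score, at the upper end mostly just under the limit. The 11 embryos in the middle are all high, and dotted lines mark the median scores of 5-6 h (-3.27) and 11-12 h (0.71).

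No gene differed between the Blimp-1 groups at an adjusted p under 0.05. By edgeR's quasi-likelihood fit of 8859 protein-coding genes, in which the library was a covariate, 0 were higher (0%) and 0 lower (0%) in Blimp-1 high embryos after Benjamini-Hochberg adjustment over all genes, and the smallest adjusted p was 0.170. At an unadjusted p under 0.05, 465 genes were higher (5.25%) and 377 lower (4.26%). DESeq2's Wald test on the same design called 9 genes higher and 1 lower. The median size of the log2 fold change was 0.36 and its median standard error 0.43. Without the library as a covariate 197 genes were higher and 268 lower, but that fit also takes in differences between libraries.

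Of the 10 genes with the smallest p, chosen after their values were seen, 9 had higher medians in Blimp-1 high embryos and PIG-H a lower one. Not1, the scaffold of the CCR4-NOT complex that shortens poly(A) tails, had 42.9 to 208 cpm in the high group (median 132) and 20.3 to 122 cpm in the low group (median 45.0). No low embryo exceeded the median of the high group, although the ranges overlapped. Its log2 fold change was 1.25 ± 0.24 (SE, adjusted p 0.170), and the difference of medians on the log2 scale was 1.26, 1.76, 0.78 and 1.54 in libraries E1_1, E1_2, E2 and E3. Unr, an RNA-binding protein that in flies takes part in the translational control of msl-2, had 25.97 to 291 cpm (median 154) against 13.7 to 63.3 cpm (median 34.8). Rbcn-3B, a rabconnectin that regulates the proton pump of endosomes, had 10.2 to 47.5 cpm (median 24.0) against 0 to 18.0 cpm (median 7.07), and 9 of the 11 low embryos lay below the lowest high embryo. The ETS repressor gene aop, an antagonist of receptor tyrosine kinase signalling, had 71.9 to 380.3 cpm (median 206) against 35.7 to 127 cpm (median 82.1). PIG-H, a subunit of the enzyme that starts GPI anchor synthesis, had 0.976 to 8.88 cpm in the high group (median 3.81) and 3.38 to 45.7 cpm in the low group (median 8.92), and its log2 fold change was -1.59 ± 0.40 (SE) at an adjusted p of 0.342. All of these were among the 10 genes called by DESeq2, with adjusted p of 0.0046 for Not1 and Unr, 0.0019 for Rbcn-3B, 0.020 for PIG-H and 0.026 for aop.

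With log2 Blimp-1 as a continuous regressor in place of the limit, 272 genes (3.07%) rose and 357 (4.03%) fell with Blimp-1 across the 27 embryos (edgeR's quasi-likelihood test, adjusted p under 0.05). All of them had the same sign in the comparison of groups, which used the same embryos and Blimp-1 values and is no independent test. These calls depended on which embryos entered. Without embryos 15 and 18, which had the least Blimp-1, 0 genes passed in either direction (754 and 955 at an unadjusted p under 0.05). The same held without library E1_1 (586 and 826), and the smallest adjusted p of the 2 fits were 0.067 and 0.068. Both fits hold fewer embryos, and the first a narrower range of Blimp-1. The part of this in the loss of calls was not tested. Without embryos 14 and 15, which resembled other ages, 491 rose and 693 fell. With the length index of an embryo, defined with the transcript lengths, as a further covariate 41 rose and 451 fell, and with the stage score 99 and 68. Some called genes went the other way in part of the libraries. The difference of group medians on the log2 scale was -0.22 for Antp in E2, and -0.98 for pros and -0.62 for peb in E3, although these genes rose. For Mcm7, which fell, it was 0.87 in E1_1. PCNA, which also fell, had 0.19 in E1_1 and 0.41 in E3, and E(spl)m4-BFM 0.090 in E1_1 and 2.47 in E3. E(spl)m6-BFM, which rose, had -0.010 in E1_1 and -0.71 in E3. In E1_2 and E2 PCNA and both E(spl) genes had the sign of the call. Calls with continuous Blimp-1 in the rest of the text carry these limits. The members of each list that rose or fell stand against the 3.07% and 4.03% of all genes.

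The genes whose level was most like that of Blimp-1, by Spearman's rho of log2 cpm centred on library over the 27 embryos, were Mical (0.87), crol (0.83), Fas3 (0.83), Muc30E (0.82) and CG31224 (0.81). These rho values describe the embryos that chose them and carry no test, and the embryos share libraries and differ in depth. Mical, an enzyme that oxidises actin downstream of plexin receptors, had 22.7 to 144 cpm in the high group (median 49.9) and 3.90 to 71.5 cpm in the low group (median 24.8). The zinc finger gene crol, itself inducible by ecdysone, had 60.8 to 264 cpm (median 175) against 3.35 to 210.1 cpm (median 68.9). Fas3, a homophilic adhesion protein of epithelia and neurons, had 251 to 1201 cpm (median 542) against 43.5 to 662 cpm (median 239). For each of these 3 genes the lowest value of all was that of embryo 15. Muc30E, a mucin gene, went from 0.172 cpm at 5-6 h to 41.6 cpm at 8-9 h and 6.38 cpm at 11-12 h (medians over embryos), with 5.09 to 211 cpm in the high group and 0.379 to 177 cpm in the low group. The ranges of the groups overlapped in all of them.

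At the other end of the same measure were Tom20 (-0.81), RpL24-like (-0.80), MED11 (-0.80), sqh (-0.79) and Tctp (-0.79). Tom20, a receptor for protein import into mitochondria, had 474 to 1259.5 cpm in the high group (median 658) and 558 to 1708 cpm in the low group (median 966). The nonmuscle myosin light chain gene sqh had 331 to 749.7 cpm (median 586) against 236 to 995 cpm (median 660.2), and its 2 lowest embryos of all were low ones. Tctp, a growth regulator, had 1799 to 4822 cpm (median 3088) against 2752 to 22995 cpm (median 4086), the highest being embryo 15. Their log2 fold changes between groups lay between -0.62 and -0.44, none of them with an adjusted p under 0.48, and that of Tctp was 0.04 under quantile normalization.

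**Figure D3:**
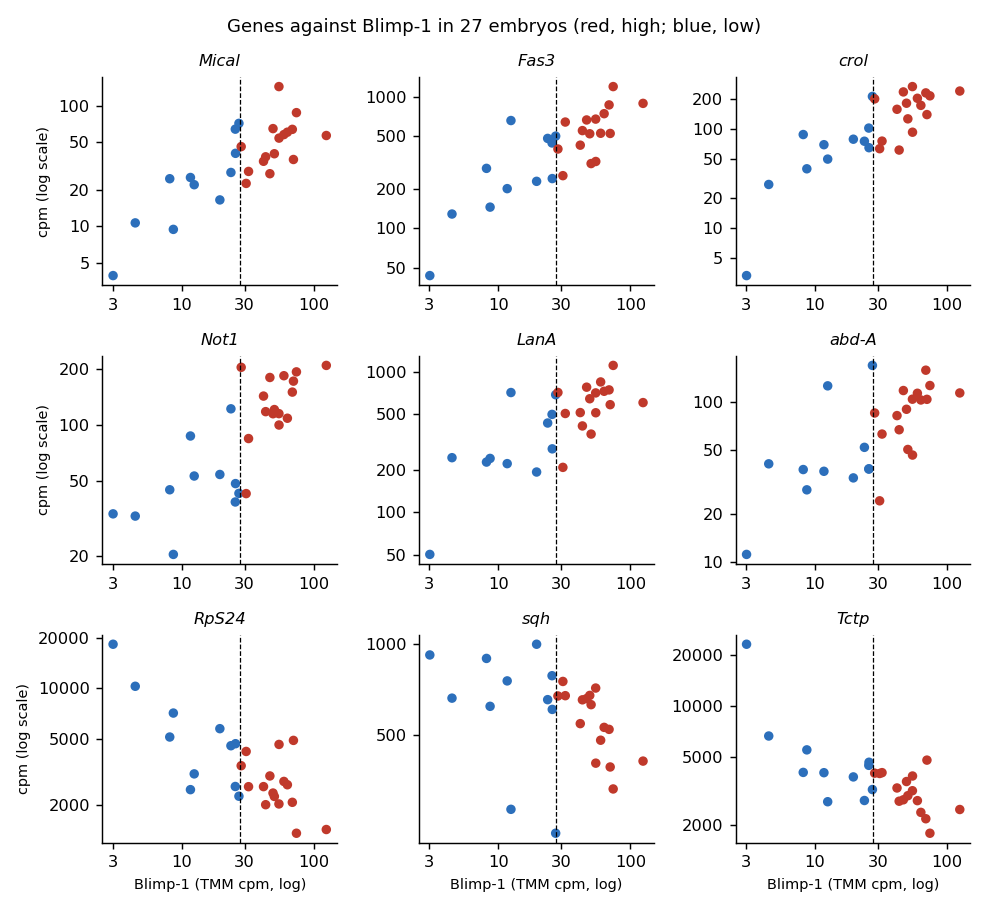
Level of 9 genes (cpm) against that of Blimp-1 (TMM cpm) in the 27 embryos, both on logarithmic axes, with Blimp-1 high embryos in red, low embryos in blue and the dashed line at the limit between the groups. Mical, Fas3, crol, Not1, LanA and abd-A have higher and RpS24, sqh and Tctp lower levels at high Blimp-1, with overlapping groups in every panel.

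Genes for cytoplasmic ribosomal proteins had mostly negative values between the groups. Of 84 tested, 82 had a negative log2 fold change, with a median of -0.46 against -0.07 over all genes, and 25 were lower at an unadjusted p under 0.05 (against 4.26% of all genes) and 0 higher. None passed the adjusted test between groups, whereas with continuous Blimp-1 74 fell (against 4.03% of all genes) and 0 rose. The median of the list was negative under all 31 alternatives, between -0.11 and -0.75. Those with continuous Blimp-1 are slopes per doubling of Blimp-1, a different measure from the log2 fold change between groups. The median was -0.11 both with the length index as a covariate and under quantile normalization, and -0.75 with Blimp-1 scaled over the 8-9 h embryos alone. RpS24 had 1361 to 4888 cpm in the high group (median 2585) and 2265 to 18373 cpm in the low group (median 4669.7), with the highest values in embryos 15 and 18. For RpS13 the range was 3419.7 to 12747 cpm (median 5113) against 5346 to 36222 cpm (median 9259), and all 11 low embryos lay above the median of the high group. Of the 84 genes 47 were lower (against 19.8% of all genes) and 0 higher at 11-12 h than at 5-6 h, and RpS24 had medians of 5559, 2453 and 1684 cpm at 5-6 h, 8-9 h and 11-12 h.

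The share of all counts on ribosomal protein genes was 21.3% to 36.9% in the high group (median 25.8%) and 23.2% to 48.1% in the low group (median 33.9%), and it was 48.1% in embryo 15 and 47.1% in embryo 18. Reads of near-identical copies of these genes could be split between them. The high group had the lower median in each library, by 7.19 percentage points for E1_1, 1.22 for E1_2, 5.24 for E2 and 0.842 for E3. The embryos overlapped widely, and 3 of the 11 low embryos lay below the median of the high group.

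The difference between the groups also went with the length of transcripts. Across 8859 genes, which are not independent, the log2 fold change had a Spearman's rho of 0.49 with the length of a gene's longest transcript. The median length was 5102 bases for the 465 genes higher at an unadjusted p under 0.05 and 1251 bases for the 377 lower, against 2023 for all. Of the 2215 genes with the longest transcripts 1718 had a positive log2 fold change, and of the 2219 with the shortest 360 did. Over all genes of each set the medians were 0.44 and -0.29, and only 72 of the 2219 were for ribosomal proteins. A length index for each embryo, the mean log2(cpm + 1) of these 2215 genes minus that of these 2219, ran from -1.89 to 0.45 in the high group (median -0.20) and from -2.25 to -0.24 in the low group (median -1.13). All 11 low embryos lay below the median of the high group, and the difference of medians was 1.05, 0.24, 0.75 and 0.37 in libraries E1_1, E1_2, E2 and E3. With the index as a further covariate 163 genes were higher and 237 lower at an unadjusted p under 0.05, against 465 and 377 without it. Blimp-1 itself, left out of the tests, has a length of 7517 bases, above the limit of 3396 bases for the longest transcripts. The groups were thus set by a gene with a long transcript. Whether its measured level varies with the recovery of long transcripts was not tested. RNA integrity was not analysed here, and its part in the length pattern, like that of depth, was not tested.

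**Figure D4:**
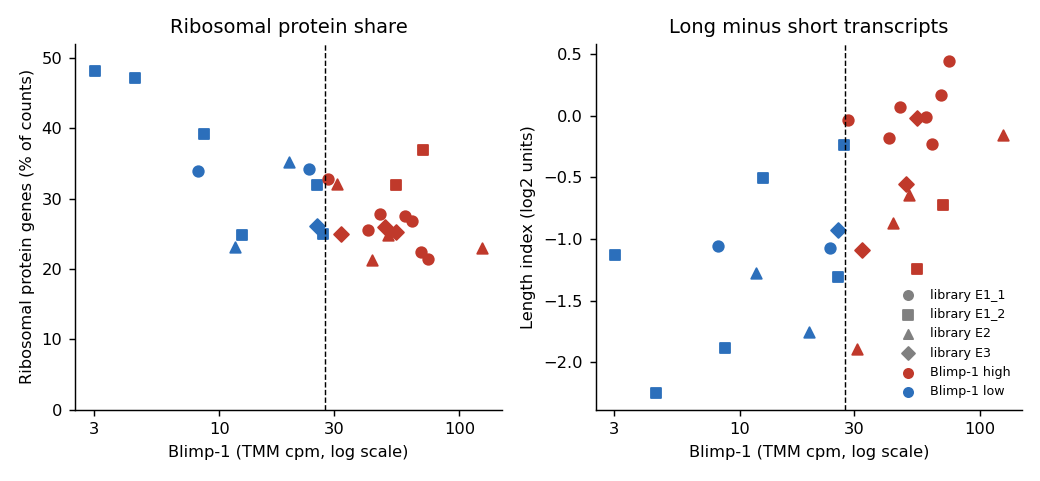
Share of counts on ribosomal protein genes (left) and length index (right, log2 units) against Blimp-1 (TMM cpm, logarithmic axis) in the 27 embryos, with colours for the groups and symbols for the libraries. The share reaches 48.1% and 47.1% in the 2 embryos with the least Blimp-1, and the length index has medians of -0.20 in the high and -1.13 in the low group.

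Genes of the ecdysone response, the pathway that induces Blimp-1, were not called in either direction between the groups. Of 22 tested, 14 had a positive and 8 a negative log2 fold change (median 0.29). At an unadjusted p under 0.05, 6 were higher (against 5.25% of all genes) and 2 lower (against 4.26%). With continuous Blimp-1 the nuclear receptor genes Hr4 and Eip75B rose (against 3.07% of all genes). Hr4 had 52.8 to 535 cpm in the high group (median 191) and 12.8 to 297 cpm in the low group (median 77.1), and Eip75B 29.6 to 144 cpm (median 81.7) against 8.36 to 119 cpm (median 42.2). EcR, the receptor itself, had a median of 54.9 cpm against 28.8 cpm (log2 fold change 0.80 ± 0.33, SE, adjusted p 0.48). The nuclear receptor gene ftz-f1, a known target of repression by Blimp-1, was at 1.18 to 11.4 cpm in the high group (median 4.44) and 2.15 to 13.2 cpm in the low group (median 5.58). Its log2 fold change was -0.01 ± 0.47 (SE), and its sign changed with the processing. In the list of ecdysone synthesis and turnover 7 of 9 genes had positive values (median 0.41) and none passed.

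Tracheal genes, where Blimp-1 has a known role, had 13 of 15 positive values and a median of 0.59, and vvl and rib rose with continuous Blimp-1. In whole embryos more cells of a type and more RNA per cell cannot be told apart. The POU factor gene vvl had 89.1 to 483 cpm in the high group (median 296) and 5.58 to 338 cpm in the low group (median 106). Its lowest value was that of embryo 15, and the next of the low group was 76.8 cpm. The BTB factor gene rib, needed for tube formation, had 134 to 579 cpm (median 389.9) against 7.25 to 694 cpm (median 237). Gasp, a chitin-binding protein of the later tracheal lumen, went the other way with a log2 fold change of -1.80 ± 0.90 (adjusted p 0.54). It reached 545 cpm in embryo 14 and 305 cpm in embryo 8, both low, against at most 195 cpm in the high group, while its medians were 14.6 cpm in the high and 14.5 cpm in the low group.

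**Figure D5:**
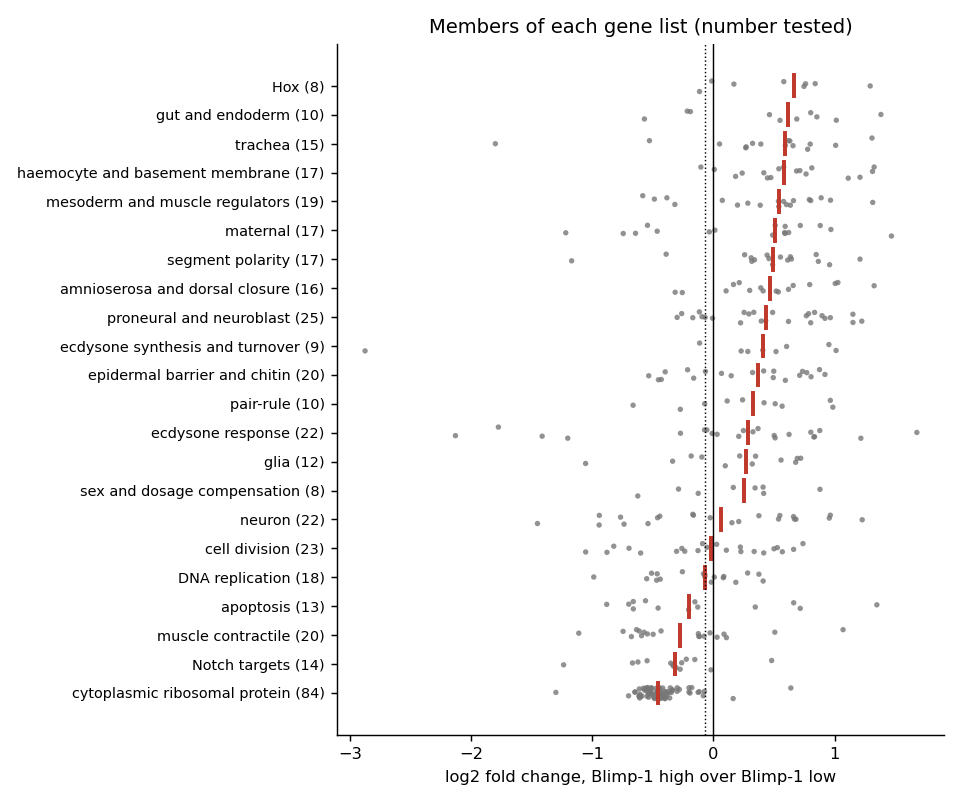
Log2 fold change (Blimp-1 high over low) of every tested member of 22 gene lists, with the number tested in brackets, red bars for list medians and the dotted line for the median of all genes (-0.07). Medians run from -0.46 for ribosomal proteins to 0.66 for Hox genes, and no member passed the test between the groups.

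Patterning genes had positive medians. Of 8 Hox genes 6 had positive values, with a median of 0.66, and Abd-B, Antp and abd-A rose with continuous Blimp-1. Abd-A, which specifies abdominal segments, had 24.2 to 159 cpm in the high group (median 97.0) and 11.2 to 170.4 cpm in the low group (median 38.2). Embryo 15 had the 11.2 cpm, and the next of the low group had 28.3 cpm. Of 17 segment polarity genes 15 had positive values (median 0.49), and en, ci and fz rose with continuous Blimp-1, whereas among 10 pair-rule genes slp2 and Ten-m did.

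In the nervous system regulators of early neurons and genes of mature ones were listed apart. Of 25 proneural and neuroblast genes 18 had positive values (median 0.43), and grh, nerfin-1, brat and pros rose with continuous Blimp-1. The zinc finger gene nerfin-1, transcribed in neuroblasts and young neurons, had 36.7 to 170.5 cpm in the high group (median 117) and 1.67 to 76.1 cpm in the low group (median 41.2). In the list of neurons 11 values were positive and 11 negative (median 0.06), and those that rose were Nrg, elav, scrt and fne, of which fne had a log2 fold change between the groups of -0.016 with the length index as a covariate. The neuronal RNA-binding protein gene elav had 62.3 to 674 cpm (median 230.2) against 2.23 to 434 cpm (median 69.3). On the list of 12 glial genes Nrt and drl rose. Its members repo, gcm, loco and moody did not pass (adjusted p 0.17, 0.62, 0.50 and 0.997, edgeR's quasi-likelihood test). The calls on this list are therefore not read as a rise of glial genes.

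Of 17 genes for haemocytes and basement membrane 16 had positive values, with a median of 0.58, and 5 rose with continuous Blimp-1 (against 3.07% of all genes). These were the laminin genes LanA, LanB1 and LanB2, the papilin gene Ppn and the GATA factor gene srp, which specifies haemocytes and is also on the amnioserosa list. Pvr, Pxn, crq and PPO1 did not pass (adjusted p 0.16, 0.28, 0.59 and 0.35, edgeR's quasi-likelihood test). The calls are therefore not read as a rise of haemocyte genes. With the length index as a covariate the log2 fold change of LanB2 between the groups was -0.087 and its slope on Blimp-1 0.027. LanA had 209 to 1113 cpm in the high group (median 625) and 50.2 to 713 cpm in the low group (median 245), with differences of medians on the log2 scale of 1.24, 1.05, 0.89 and 0.37 in the libraries in the order above. On the list of amnioserosa and dorsal closure, with 14 of 16 positive values (median 0.46), 5 genes rose (against 3.07% of all genes), among them peb, Egfr and ush.

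Mesoderm regulators and contractile genes of muscle had medians of opposite sign. Of 19 regulators 15 had positive values (median 0.54), and sns and rst, which encode adhesion proteins of myoblast fusion, rose with continuous Blimp-1, although the log2 fold change of rst between the groups was -0.078 with the length index as a covariate. Of 20 contractile genes 15 had negative values (median -0.28), and Zasp52 alone rose. Troponin I (wupA) had medians of 54.7 and 52.9 cpm in the high and low groups, but its highest low embryo had 307 cpm against 93.7 cpm for the highest high one. Of 20 genes of the epidermal barrier 13 had positive values (median 0.37), with grh, Cont and cora rising, and of 10 gut genes 7 did (median 0.62), with bowl rising.

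Genes of the cell cycle had medians near that of all genes. Of 23 cell division genes 11 had positive values (median -0.02), and with continuous Blimp-1 fzr rose while fzy and polo fell. The log2 fold change of polo between the groups was -1.05, and 0.036 with the summed level of the dosage compensation RNAs roX1 and roX2 as a covariate. This roX level ran from 133 to 2080 cpm over the 27 embryos and was not used to assign sex. The gene fzy, an activator of the anaphase-promoting complex in mitosis, had 29.5 to 133 cpm in the high group (median 76.3) and 26.1 to 604 cpm in the low group (median 127), whereas fzr, its counterpart at exit from the cycle, had medians of 244 and 132 cpm. Of 18 replication genes 7 had positive values (median -0.07), and Mcm5, PCNA and Mcm7 fell with continuous Blimp-1. Between the groups PCNA had a log2 fold change of 0.15 with the length index as a covariate, and Mcm7 had positive values with the roX level (0.43), with the stage score (0.051), under quantile normalization (0.081) and without library E1_2 (0.091). PCNA, the sliding clamp of DNA polymerase, had 83.6 to 374 cpm (median 256) against 80.3 to 714 cpm (median 409), beside medians of 1105 cpm at 5-6 h and 84.0 cpm at 11-12 h.

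Of 14 targets of Notch signalling 13 had negative values (median -0.32), and with continuous Blimp-1 E(spl)m4-BFM fell and E(spl)m6-BFM rose. Many of these genes lie side by side and resemble each other in sequence, so that reads could be split between them. Of 13 apoptosis genes 9 had negative values (median -0.20), with skl and rpr falling with continuous Blimp-1, although the log2 fold change of rpr between the groups was 0.018 with the roX level as a covariate, and of 17 maternal genes 11 had positive ones (median 0.51), with bcd falling. Of 8 genes of sex and dosage compensation 5 were positive (median 0.25). The dosage compensation RNAs roX1 and roX2 summed to 460.0 to 2080 cpm in the high group (median 1211) and 133 to 1248 cpm in the low group (median 535). With this sum as a further covariate 292 genes were higher and 191 lower at an unadjusted p under 0.05, and the median of ribosomal protein genes was -0.19.

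The genes that varied with Blimp-1 were set beside the contrast of ages. Of the 465 genes higher at an unadjusted p under 0.05, 20.7% of those tested in both were higher at 11-12 h and 7.91% lower, and of the 377 lower genes 15.4% were higher and 36.9% lower, against 23.8% and 20.3% of all 8690 genes in both. Among the genes called with continuous Blimp-1, 100 of 270 that rose were higher at 11-12 h and 8 lower, and of 348 that fell 10 and 216. These shares describe the lists, and the 5 embryos with the least Blimp-1 also had low stage scores, from -2.24 to -1.78. Across genes the log2 fold changes between the Blimp-1 groups and between the ages had a Spearman's rho of 0.18.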

How the data were processed

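Raw counts per gene were deposited by the authors, who trimmed the BRB-seq reads, mapped them to BDGP6 with STAR and counted them with HTSeq, without normalization. Counts of 17698 genes in 288 samples were read, of which 13829 are protein-coding in Ensembl 115, the source of coordinates and transcript lengths. The small cluster was delimited by multidimensional scaling on 1 minus Spearman's correlation of quantile-normalized log2 cpm after ComBat over libraries (limma 3.58.1, sva 3.50.0, R 4.3.3), with samples above 0 on the second axis and below -0.13 times the maximum of the first inside it. Of 250 samples past the limits on counts and genes, those outside it were used.

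Genes with a mean cpm above 1 over the 27 embryos were tested with edgeR 4.0.16 (TMM, glmQLFit and glmQLFTest, library and Blimp-1 group), and DESeq2 1.42.0 was an alternative. Levels are TMM cpm over the 27 embryos, except Blimp-1 and the medians by age, which are scaled over all ages. Scores used a pseudocount of 1. Embryos are separate samples, but their parents are not given. No pair of embryos agreed within sampling noise (lowest chi-square of 27.3 per degree of freedom). The fit was tested on simulated counts.

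Named genes were to be the 10 with the largest log2 fold change in each direction past the threshold, the 5 highest and 5 lowest correlations with Blimp-1 at a mean log2 cpm of at least 3, and examples from the lists, chosen by the smallest p. Genes called with continuous Blimp-1 and those of the smallest p were named after their values were seen. The members, the groups and the lists were chosen with earlier results of these data known. List symbols that matched no gene were left out, and promoter sequences were not used here.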

Additional observations from a re-analysis of the deposited data

How the results depend on the processing

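The main counts of 0 higher and 0 lower genes were also obtained in 20 of 31 alternatives, among them other normalizations, filters, thinning to 1966457 counts, limma on quantile-normalized values, the stage score or roX level as covariate and leaving out each library. Calls appeared with DESeq2 (9 and 1), with no covariate (197 and 268), without the 7 embryos between 20 and 35 cpm (1 and 0), with DESeq2 on the 25 embryos most alike to 8-9 h (158 and 70, added after seeing the data) and with continuous Blimp-1 (272 and 357). Further settings of the last, also added after seeing the data, gave 491 and 693 on embryos most alike to 8-9 h, 41 and 451 with the length index, 99 and 68 with the stage score, 188 and 117 without library E1_2, 82 and 220 without E2, and 240 and 283 without E3. The cause of these differences was not tested.

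Among the genes named, 22 values changed sign. The log2 fold change of ftz-f1 was 0.023 on all genes of the table, 0.066 with total counts, 0.12 with the roX level, 0.0090 above 5 cpm, 0.029 without a filter, 0.23 without library E1_2, 0.036 without E2 and, as a slope, 0.0069 without E1_2. Mcm7 had 0.43 with the roX level, 0.051 with the stage score, 0.081 under quantile normalization and 0.091 without E1_2, polo 0.036 and rpr 0.018 with the roX level, and Tctp 0.037 under quantile normalization. With the length index fne had -0.016, rst -0.078, PCNA 0.15, LanB2 -0.087 and E(spl)m8-HLH 0.088, and the slopes of EcR and pyd were -0.034 and -0.063. The stage score difference stayed between 0.21 and 0.73, and the reference contrast kept its counts within 1.5 times. No paired analysis was possible because the replicate numbers only name embryos and link no embryo of a group to one of the other. Blimp-1 itself rests on 6 to 1614 counts per embryo, which limits the order of the lowest ones.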
